A study of Mus musculus with 8 samples.

Results

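Immunoglobulin heavy chain V segments are the genes named Ighv, and they were taken here as every gene with that name start in either of the study's m6A peak lists, with all of its peaks. There were 67 such genes of 12413 genes in the lists, and they held 118 of 52954 peaks. The PTC list held 43 of the genes with 48 peaks, and the control list held 62 genes with 70 peaks. All 67 genes lie on the minus strand of mouse chromosome 12, in a locus that spans 2.44 Mb of the GRCm38 build (chr12:113572927-116010093).

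The samples were mouse primary T cells in culture, treated for 24 h with an agent labelled PTC, which the labels do not spell out, or kept as controls for the same 24 h. RNA bound in an m6A immunoprecipitation and its input were sequenced, giving 4 groups of 2 samples each: PTC immunoprecipitate, control immunoprecipitate, PTC input and control input. All 8 samples shared the culture medium with 10% fetal bovine serum, and the labels give neither strain nor age, nor whether the samples of a group are separate animals or separate cultures. The peaks were deposited as 1 list per condition, so nothing here has a replicate check, no difference between conditions was tested, and the read depth behind a peak is unknown.

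A V segment is made of a leader exon and a V exon that encodes most of the variable domain of an antibody chain. In developing B cells 1 heavy chain V segment is joined to a D and a J segment, and the joined exon is then spliced to a constant region such as Ighm. m6A is a methyl mark on adenosine inside messenger RNA, written mostly in the 5-letter motif DRACH, in which D stands for any base but C, R for A or G and H for any base but G. GGACT is its most used form. Immunoprecipitation peaks show where RNA fragments bound by the antibody are enriched over input, not the methylated base itself.

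The end of the V exon is shown first because the peaks of some of the highest-scoring genes ended at different places there in the lists. The lines give the last 60 nt of the V exon on the coding strand, 5′ to 3′, for the 6 genes with the highest peak score among those in both lists. Sequences are GENCODE M21 transcripts on GRCm38, and capitals mark each DRACH match.
Ighv1-26: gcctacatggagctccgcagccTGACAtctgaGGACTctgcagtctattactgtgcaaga
Ighv1-53: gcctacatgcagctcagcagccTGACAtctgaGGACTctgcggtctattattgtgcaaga
Ighv1-64: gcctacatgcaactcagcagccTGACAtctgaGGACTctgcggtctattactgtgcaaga
Ighv1-81: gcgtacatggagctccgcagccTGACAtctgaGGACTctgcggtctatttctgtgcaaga
Ighv9-3: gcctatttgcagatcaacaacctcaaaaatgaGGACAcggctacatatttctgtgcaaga
Ighv6-3: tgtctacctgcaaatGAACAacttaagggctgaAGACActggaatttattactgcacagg

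The 4 Ighv1 genes carry GGACT, which starts 28 nt before the end of the annotated exon. Ighv9-3 has GGACA at that place, and Ighv6-3 has no GGACT in the stretch. Over the annotation, GGACT stood at this position in 43 of 53 Ighv1 genes and in 1 Ighv15 gene, and in no V gene of another subfamily. Among the listed genes it stood in 32 of 36 Ighv1 genes.

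Fewer Ighv genes had a peak in the PTC list than in the control list. Of the 67 genes, 5 (7.46%) were listed in PTC alone, 24 (35.8%) in control alone and 38 (56.7%) in both. Over all 12413 genes the shares were 8.24% in PTC alone, 12.5% in control alone and 79.2% in both. The share of Ighv genes in PTC alone was thus near that of all genes, and the share in control alone was above it. The lists hold no expression values, so a gene without a peak may have lacked RNA or lacked enrichment, and in bulk samples fewer cells of a type and less RNA per cell cannot be told apart.

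The lists differ in length, with 23368 PTC peaks and 29586 control peaks. When the control list was shortened to the length of the PTC list by score, the background turned, with 13.6% of all genes in PTC alone and 7.53% in control alone. Ighv genes in control alone still outnumbered those in PTC alone, with 6 of 64 in PTC alone, 21 of 64 in control alone and 37 of 64 in both. With peaks of a −log10 FDR of at least 5 on both sides, 3 of 41 Ighv genes were in PTC alone, 26 of 41 in control alone and 12 of 41 in both, against 9.86%, 10.6% and 79.5% of all genes in the same order. The FDR is the authors' false discovery rate for each peak, and their fold enrichment was read here as enrichment over input. With peaks of at least 4-fold enrichment, 7 of 39 Ighv genes were in PTC alone, 16 in control alone and 16 in both, against 16%, 24.6% and 59.4% of all genes.

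The light chain V segments (Igkv and Iglv), which pair with heavy chains in antibodies, lay on the same side. Of 68 listed, 6 were in PTC alone, 34 in control alone and 28 in both. The T cell receptor V segments did not show this split. Of 52 listed, 13 were in PTC alone, 11 in control alone and 28 in both. With lists of equal length the T cell receptor counts were 18 in PTC alone, 6 in control alone and 23 in both, and the light chain counts were 6, 27 and 28 in the same order.

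**Figure D1:**
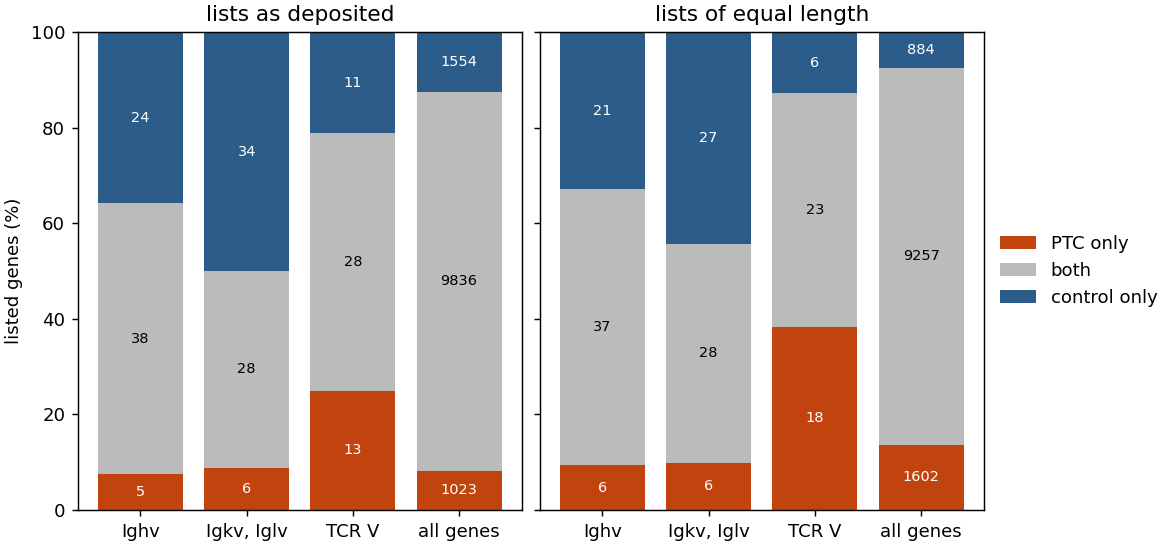
Share of listed genes (%, y axis) with a peak in the PTC list only, in both lists or in the control list only, for heavy chain V (Ighv), light chain V (Igkv, Iglv), T cell receptor V and all genes; numbers inside the bars are genes. The left panel uses the lists as deposited and the right panel lists of equal length, where control-only genes are 21 of 64 for Ighv and 884 of 11743 over all genes.

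The label primary T cells was set against marker genes. All 12 T cell markers were listed, 11 in both lists, among them Cd3d, Cd3e, Cd4, Cd8a and Lck, and Trbc2 in PTC alone. B cell transcripts were listed as well: 23 of 26 B cell markers had a peak, 2 in PTC alone (Cr2 and Vpreb3), 2 in control alone (Ighg1 and Pou2af1) and 19 in both. Of 10 plasma cell markers 7 had a peak, and of 8 myeloid markers 6, all of these in both lists. The B cell list held 43 PTC peaks and 47 control peaks. Its scores ran both ways, with Ms4a1 at a −log10 FDR of 134 in PTC and 217 in control and Blk at 17.6 in PTC and 35.7 in control, but Fcer2a at 14.9 in PTC and 7.78 in control. Fold did not always follow the score. It was 3.67 in PTC and 2.81 in control for Ms4a1, and 4.04 in PTC and 6.25 in control for Blk. For Fcer2a it was 5 in PTC and 2.46 in control. No peak was listed for Cd79a, Cd74 and Ighe among B cell markers, or for Itgam and Adgre1 among myeloid markers. What B cell RNA contributed to the Ighv counts was not tested.

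The constant regions to which rearranged V segments are spliced were mostly in both lists. The strongest Ighm peak, of the first antibody class a B cell makes, had a −log10 FDR of 108 in PTC and 257 in control. For Ighd, its partner on resting B cells, the values were 32.8 in PTC and 66.1 in control. Among switched classes, Ighg2b had 9.73 in PTC and 24.3 in control, Ighg2c 4.44 in PTC and 22.9 in control, Ighg3 32.8 in PTC and 38.4 in control, and Igha 1.56 in PTC and 5.69 in control. The fold of these peaks stood in the other order. It was 3.39 in PTC and 2.27 in control for Ighg2b, and 3.99 in PTC and 2.45 in control for Ighg2c. For Ighg3 it was 3.5 in PTC and 2.34 in control, and for Igha 2.33 in PTC and 1.76 in control. Ighm had a fold of 1.51 in PTC and 1.56 in control, and Ighd 2.54 in PTC and 2.84 in control. Ighg1 had no peak in PTC and 3 peaks in control, the strongest at 13.9. The scores of the lambda light chain constant genes were higher in PTC, as with Iglc2 at 112 in PTC and 82.4 in control. Scores and folds of separately called lists are given side by side, and no change was read from them.

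Ighv peaks had a lower median score than all peaks of the list in PTC and a slightly higher one in control. Their median −log10 FDR was 3.27 in PTC (1.73 to 32.1) and 5.74 in control (1.79 to 60.2), beside 6.61 and 5.47 over all PTC and all control peaks. A score of at least 5 was reached by 17 of 48 PTC peaks, where 59.8% of all PTC peaks reached it, and by 41 of 70 control peaks, where 53.4% of all control peaks did. Ighv peaks thus fell below their list's share in PTC and slightly above it in control. Among all genes of its list ranked by strongest peak, the median Ighv gene stood at percentile 13.4 in PTC and 31.2 in control. Above the median gene of the list were 6 of 43 genes in PTC and 20 of 62 in control. This ranking takes the highest of a gene's peaks and was not adjusted for their number. Of the Ighv genes, 39 of 43 in PTC and 54 of 62 in control had only 1 peak.

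Fold enrichment gave another picture from the score. The median fold of Ighv peaks was 4.25 in PTC (2.09 to 30.1) and 4.18 in control (1.58 to 20.9), above the 3.66 of all PTC peaks and the 3.65 of all control peaks. At least 4-fold enrichment was reached by 26 of 48 PTC peaks and 36 of 70 control peaks, where 45.2% of all PTC peaks and 45% of all control peaks reached it. Fold and score were nearly unrelated across Ighv peaks, with Spearman rho of -0.02 over 48 PTC peaks and 0.13 over 70 control peaks, as a description of peaks that share libraries. The highest folds, named after their values were seen, belonged to Ighv5-16 in PTC, with 30.1-fold at a −log10 FDR of 7.48, and to Ighv5-17 in control, with 20.9-fold at 4.8.

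**Figure D2:**
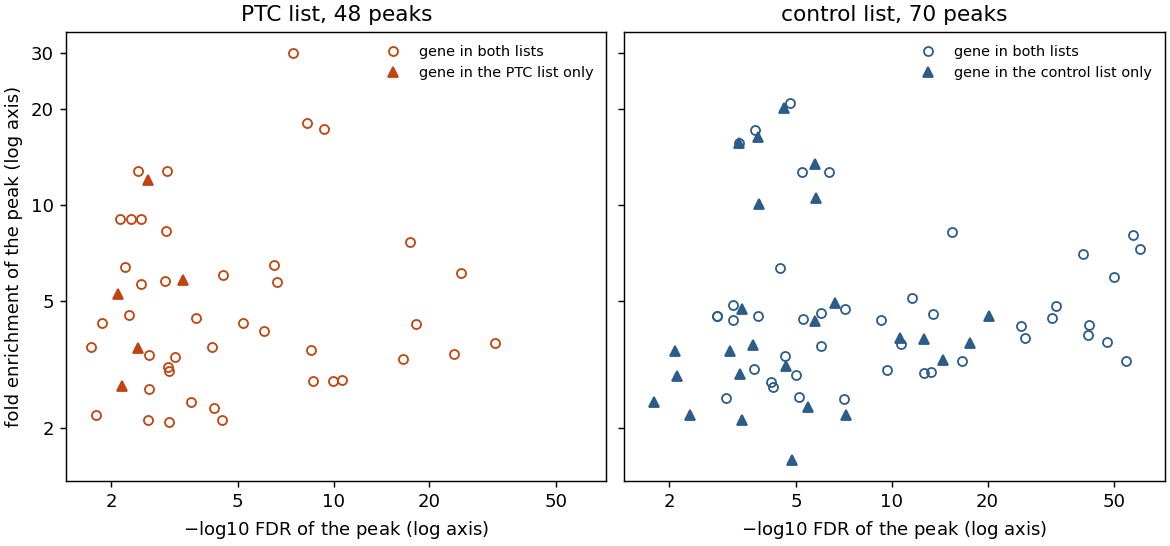
Fold enrichment (y, log axis) against −log10 FDR (x, log axis) of each Ighv peak in the PTC list (left, 48 peaks) and the control list (right, 70 peaks); filled triangles are genes listed in that list alone and open circles genes in both. PTC-only genes lie between 2.1 and 3.37 on the x axis, while control-only genes have strongest peaks from 1.79 to 20.2.

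The 5 genes in PTC alone all had weak peaks. Ighv8-2 had a −log10 FDR of 3.37 and a fold of 5.83, and Ighv5-9-1 had 2.62 with a fold of 12. Ighv3-1 followed at 2.43 and 3.55-fold, Ighv8-8 at 2.16 and 2.71-fold, and Ighv1-61 at 2.1 and 5.27-fold. None reached 5, and 3 of the 5 had another Ighv gene at 95% identity or more. The Ighv1-61 peak of 176 nt has the same length and the same distance from the V exon end, 146 nt, as the PTC peak of Ighv1-52, a gene 98.6% identical to it that was listed in both lists. The match is not particular to this pair. The PTC peak of Ighv1-9, whose closest copy is 90.3% identical, has the same length and distance. Ighv1-52 and Ighv1-9 were named after their values were seen. In PTC the strongest peaks of 5 genes stop 146 nt short.

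The 24 genes in control alone reached further up. Their strongest peaks had a −log10 FDR of 1.79 to 20.2 with a median of 4.77, and 11 of 24 reached 5. Ighv10-1 stood first with 20.2 and 4.48-fold over 329 nt, and Ighv1-19 second with 17.6 and 3.69-fold over 376 nt. Then came Ighv6-6 with 14.5 and 3.27-fold, Ighv1-75 with 12.6 and 3.81-fold, and Ighv1-4 with 10.6 and 3.83-fold. Ighv2-2, the listed gene nearest to the D segments, was also in control alone, with 7.18 and 2.19-fold. Of these 24 genes 5 had a copy at 95% identity or more.

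The 38 genes in both lists included the 6 with the highest scores. Ighv1-26 had a −log10 FDR of 32.1 in PTC and 54.2 in control, with folds of 3.68 in PTC and 3.24 in control. Its peak filled the whole annotated transcript in both lists, 351 nt across leader and V exon (chr12:114788372-114788805). Ighv1-53 had 23.9 in PTC and 47.3 in control, and its peak also covered all 351 nt in both. Ighv9-3 had 16.5 in PTC and 41.7 in control, again over its whole 351 nt in both lists. These 3 genes had peaks of the same extent in the PTC list and the control list.

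The other 3 of the top 6 had peaks of different extent. Ighv1-81 had 17.4 in PTC and 60.2 in control, with folds of 7.65 in PTC and 7.27 in control. Its peak was 322 nt in PTC and 351 nt in control, and the PTC peak ended 29 nt before the end of the V exon. Ighv1-64 had 25.2 in PTC and 57.3 in control, with 347 nt in PTC against 405 nt in control, and its PTC peak also ended 29 nt short. Ighv6-3 had 10.6 in PTC and 50 in control, with 267 nt in PTC against 356 nt in control. In each of these genes the control peak covered the whole transcript.

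**Figure D3:**
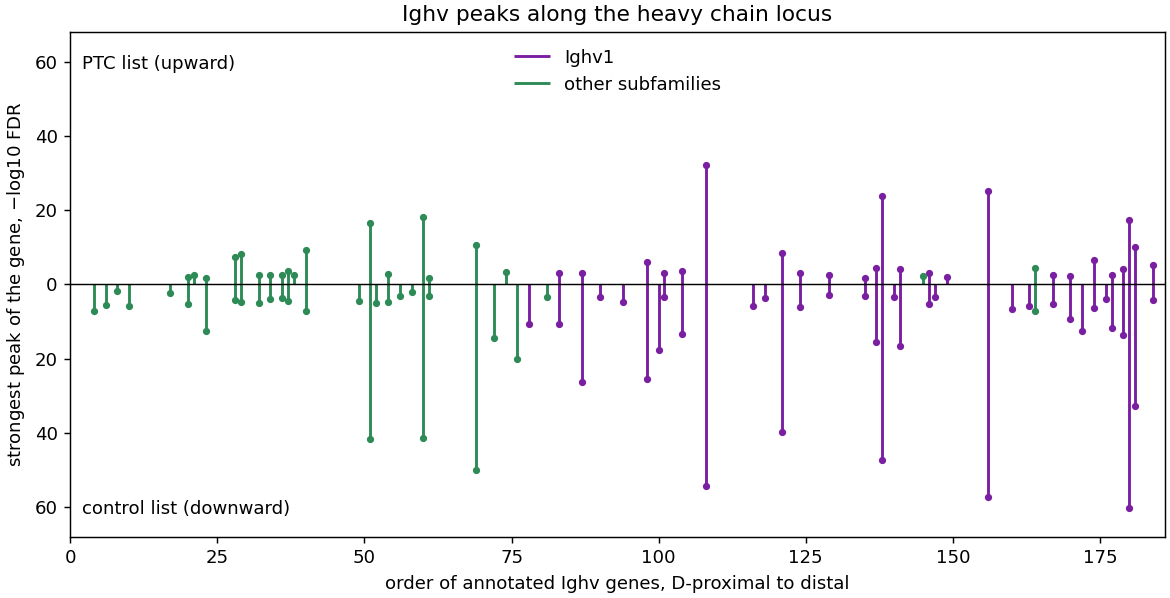
Strongest peak of each listed Ighv gene as −log10 FDR, upward for the PTC list and downward for the control list, along the order of the 185 annotated Ighv genes from the D-proximal to the distal end; purple stems are Ighv1 and green stems other subfamilies. The tallest stems are Ighv1-26 in PTC (32.1) and Ighv1-81 in control (60.2).

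All 38 shared genes had peaks that overlapped between the lists by at least 1 base. These transcripts are short, so this was close to fixed in advance. The base 180 nt from the 3′ end lay in the strongest peak of 95.8% of Ighv1 genes in PTC and 100% in control. For the other subfamilies it was 100% in both lists. The peaks without overlap were those of genes in PTC alone or control alone, so the shares as deposited repeat the gene classes. Over peaks, 43 of 48 PTC peaks (89.6%, exact 95% interval 77.3 to 96.5) were overlapped by a control peak, and 44 of 70 control peaks (62.9%, 50.5 to 74.1) by a PTC peak. Over all peaks these shares were 78.8% of PTC peaks and 60.2% of control peaks. The intervals cover counting error only. With scores of at least 5 on both sides, 14 of 17 PTC peaks (82.4%) but 13 of 41 control peaks (31.7%) were overlapped. Over all peaks at that score the shares were 83% in PTC and 70.8% in control, so the PTC share was near that of all peaks and the control share below it.

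PTC peaks were the narrower ones. In the shared genes the strongest peak had a median width of 191 nt in PTC and 288.5 nt in control. It was narrower in PTC in 29 of 38 genes (76.3%), of equal width in 6 and wider in 3. Over all 9836 genes in both lists it was narrower in PTC in 53.2%, equal in 9.23% and wider in 37.6%, with medians of 451 nt in PTC and 481 nt in control. The same genes had a median −log10 FDR of 3.93 in PTC and 8.21 in control, and a median fold of 4.12 in PTC and 4.44 in control.

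**Figure D4:**
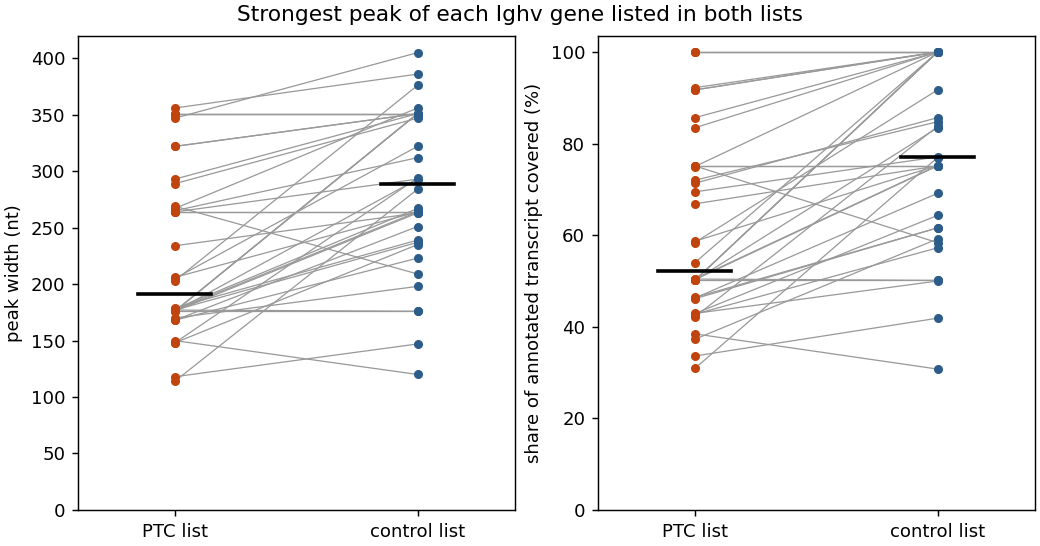
Width in nt (left) and share of the annotated transcript covered (%, right) of the strongest peak in the 38 Ighv genes listed in both lists, with PTC left of control in each panel; lines join the peaks of a gene and black bars are medians. The median width is 191 nt in PTC and 288.5 nt in control.

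Each of the 118 peaks lay inside its annotated gene with its blocks in exons. The peaks covered the V exon in every case: 25 PTC peaks and 44 control peaks ran over both exons, 23 PTC peaks and 26 control peaks lay in the V exon alone, and none lay in the leader exon alone. The narrowest peak of any gene was 108 nt in each list. A leader exon of 46 nt, as in Ighv1-26, could therefore not have held a peak alone. Over all Ighv genes of a list, the strongest peak covered a median of 50.3% of the transcript in PTC and 75.2% in control. It reached the annotated 3′ end of the V exon in 7 of 43 genes in PTC and in 19 of 62 in control. The other peaks stopped at a few distances from that end. In PTC 11 genes stopped 28 to 30 nt short, 1 at 56 to 60 nt, 8 at 85 to 89 nt, 4 at 111 to 120 nt, 10 at 141 to 150 nt and 2 at 175 to 179 nt. In control the counts for the same distances were 10, 10, 8, 10, 4 and 1. Peak ends therefore came in steps, and the place of an end is known no better than such a step.

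Whether the strongest peak took in the GGACT near the end of the V exon differed from gene to gene. Strongest peaks either reached the annotated end or stopped at least 28 nt before it. Covering this GGACT was therefore the same as reaching the end of the exon. The peak covered it in 4 of 21 PTC genes that carry it (19%, exact 95% interval 5.45 to 41.9) and in 13 of 31 control genes (41.9%, 24.5 to 60.9). These intervals overlap, but they cover counting error only and count close copies as separate genes. They also leave out that 20 genes are shared by the lists, so their overlap does not compare the lists. Among these 20 genes, with GGACT and a peak in both lists, 4 were covered in both, 7 in control alone and 9 in neither. The difference in coverage was not tested. The 4 covered in PTC, named after their values were seen, were Ighv1-26, Ighv1-39, Ighv1-53 and Ighv1-80. In Ighv1-81 and Ighv1-64 the PTC peak missed the motif by a single step.

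Covering peaks had the higher scores within each list. In PTC they had a −log10 FDR of 4.15 to 32.1 with a median of 16.2, against 1.73 to 25.2 with a median of 3.05 for the 17 genes whose peak did not reach the motif. In control they had 5.99 to 60.2 with a median of 26.3, against 3.01 to 16.6 with a median of 5.18 for the other 18 genes. The score ranges of covering and other peaks overlap in both lists. Score therefore moved with coverage of the motif. Widths of covering and other peaks were not compared, and the part of score or width in the coverage was not tested.

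**Figure D5:**
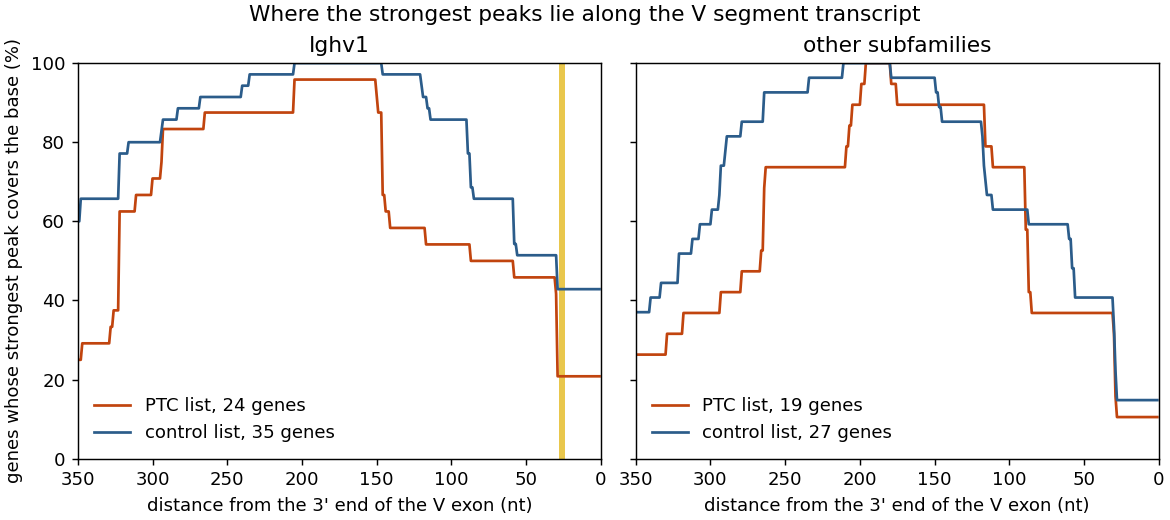
Share of genes (%, y axis) whose strongest peak covers each base, by distance in nt from the 3′ end of the V exon (x axis, end at the right), for Ighv1 genes (left) and other subfamilies (right), PTC in red and control in blue; the yellow band marks the GGACT position of Ighv1. Both lists drop in steps toward the end, and over the band 13 of 31 control genes but 4 of 21 PTC genes with the motif are covered.

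Ighv1-9, chosen after its values were seen, shows such a gene in letters. Its PTC peak had a −log10 FDR of 3.05 and a fold of 2.09, and its control peak had 26.3 and 3.83-fold over all 351 nt. The first line gives the 176 nt of the PTC peak (chr12:114583715-114583973, minus strand, across the intron), and the second the 146 nt of V exon after it (chr12:114583569-114583714), which the control peak covered as well. Capitals mark DRACH matches.
Ighv1-9 within the PTC peak: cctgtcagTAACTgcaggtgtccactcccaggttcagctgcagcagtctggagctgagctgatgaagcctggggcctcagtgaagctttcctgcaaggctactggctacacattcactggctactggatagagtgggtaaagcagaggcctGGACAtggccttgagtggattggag
Ighv1-9 after the PTC peak: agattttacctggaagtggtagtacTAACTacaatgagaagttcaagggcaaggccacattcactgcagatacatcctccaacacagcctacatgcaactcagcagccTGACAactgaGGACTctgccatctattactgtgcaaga

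The PTC peak holds 2 DRACH matches and no GGACT, and the rest of the V exon holds 3 DRACH matches, 1 of them GGACT. Ighv3-6, likewise chosen after its values were seen, gives a peak with no GGACT at all. It had a −log10 FDR of 18.2 and 4.22-fold over 234 nt in PTC, and 41.3 and 3.92-fold over 263 nt in control. The line gives its PTC peak (chr12:114288268-114288582, minus strand), with DRACH matches in capitals.
Ighv3-6 within the PTC peak: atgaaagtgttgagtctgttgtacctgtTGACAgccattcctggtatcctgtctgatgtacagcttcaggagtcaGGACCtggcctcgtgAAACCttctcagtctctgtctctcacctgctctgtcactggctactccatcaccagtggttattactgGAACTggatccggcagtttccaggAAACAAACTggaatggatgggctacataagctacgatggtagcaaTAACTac

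Ighv3-6 therefore ranked among the strongest members in both lists without GGACT in its PTC peak, which holds 7 DRACH matches. Over all Ighv peaks, GGACT was found in 14 of 48 PTC peaks (29.2%) and 32 of 70 control peaks (45.7%), searched on the transcript strand. Over all peaks of the same range of widths it was found in 24.4% in PTC and 22.1% in control. In a short window of fixed length around the midpoint of a peak, GGACT was in 12.5% of PTC and 15.7% of control Ighv peaks, beside 13% and 11.3% of all PTC and all control peaks of those widths. Counted per 1000 nt of peak, GGACT occurred 1.45 times in PTC and 1.88 times in control Ighv peaks, beside 1.36 and 1.21 times in all PTC and all control peaks of those widths. DRACH, which also takes in every GGACT, was found in 93.8% of PTC and 98.6% of control Ighv peaks, close to the 96.7% and 96.2% of all PTC and all control peaks of those widths. A match is a description of letters and not a mapped methylated base.

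The subfamilies, given by the number before the hyphen, contributed unequally. Ighv1, the largest mouse subfamily, held 36 listed genes of 53 annotated V genes, with 1 in PTC alone, 12 in control alone and 23 in both. Its strongest peaks had a median −log10 FDR of 3.87 over 24 genes in PTC and 9.25 over 35 genes in control. Ighv2 had 6 of 9 genes listed, 3 in control alone and 3 in both. Both Ighv10 genes were listed in control alone, and all 3 listed Ighv14 genes were in both. Ighv8 stood on the other side, with 2 of its 3 listed genes in PTC alone and 1 in both. No gene of Ighv11, Ighv12, Ighv13, Ighv15 or Ighv16 was listed. Apart from Ighv1 each count is at most 6 genes.

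Genes of each class lay along the whole locus. The locus was divided into 3 stretches of equal length. The D-proximal stretch held 24 listed genes, with 2 in PTC alone, 9 in control alone and 13 in both. The middle stretch held 24, with 1 in PTC alone, 10 in control alone and 13 in both. The distal stretch held 19, with 2 in PTC alone, 5 in control alone and 12 in both. The median score from the D-proximal to the distal stretch was 2.64, 3.48 and 4.19 in PTC, and 4.71, 10.7 and 7.08 in control. The D-proximal stretch held no listed Ighv1 gene, while most listed genes of the middle and distal stretches are Ighv1. Position and subfamily therefore cannot be told apart in these medians. The most distal listed gene, Ighv1-85, was in both lists, with 5.18 and 4.27-fold in PTC and 4.17 and 2.78-fold in control, over the same 264 nt.

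Most genes had 1 peak in a list, 39 of 43 in PTC and 54 of 62 in control. Ighv1-47 had the most in PTC, with 3 peaks, the strongest at a −log10 FDR of 2.49 and 9.03-fold. It had 2 peaks in control, the strongest at 2.83 and 4.48-fold. The other control genes with 2 peaks were Ighv3-5, Ighv9-4, Ighv1-42, Ighv1-76, Ighv1-77, Ighv1-78 and Ighv1-82. Each list begins again at chromosome 1 after a first ordered run of peaks, and 7 PTC and 8 control Ighv peaks stand in this second run. Of these, 4 of 7 in PTC and 8 of 8 in control overlap a peak of the same gene in the first run. Without the second run, 5 of 67 Ighv genes were in PTC alone, 26 in control alone and 36 in both, against 8.27%, 12.7% and 79.1% of all genes in the same order.

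V segments are close copies, so reads may have been shared between them. Of the 67 genes, 21 had another annotated Ighv gene at 95% identity or more: 3 of those in PTC alone, 5 of those in control alone and 13 of those in both. The closest annotated copy of a listed gene was 92.2% identical at the median (71.5 to 98.6), and none was identical. Without the 21 genes, 2 genes were in PTC alone, 19 in control alone and 25 in both. All 67 listed genes were annotated V genes, out of 113 such genes in the locus. Members were taken by name, and the V pseudogenes Ighv1-2 and Ighv1-38 have peaks but no name in the lists. They could therefore not be members.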

How the data were processed

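MeRIP-seq (m6A immunoprecipitation and sequencing) was done on 8 samples. Per the submitters' processing notes, BWA 0.7.12 and MACS2 2.1.0 were used, and GRCm39 is named. The coordinates nevertheless lie in GENCODE M21 genes on GRCm38 (99.8% of peaks of each list inside their gene), so positions are given on GRCm38. How samples were joined into 1 list per condition, and which tool made the lists' columns, is not given in the sources used here. The deposited fold column is headed only as a fold enrichment, and it was read here as immunoprecipitate over input for a peak. The deposited p-value column was not tested further, and the authors' log10 FDR is printed with its sign turned. Per the deposited lists, the highest FDR is 4.68% in PTC and 4.27% in control. A deposited summary table was not used.

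From these lists, Python 3.11.15, pandas 2.3.3, scipy 1.17.1 and bedtools 2.31.1 gave counts of genes by list, overlaps of exon blocks on the same strand (at least 1 base), medians within a list, motif counts in transcript sequence, and exact Clopper-Pearson intervals of 95%. No counts per sample were used, so the planned edgeR count test was not run. The counting steps were tested on simulated data, 8 of 8 checks passing. Named genes are the 6 with the highest score in each class (PTC list only, control list only, both lists), those with the most peaks, any shared gene without overlap (there was none), the listed genes nearest to and farthest from the D segments, and constant region and marker genes. For any other gene the text says that it was picked with its values in view. The members and lists were chosen with earlier results of these data known. The coverage of the GGACT near the V exon end, the peak widths, and the alternatives without the second run of each list and without close copies were added after the data were seen.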

Additional observations from a re-analysis of the deposited data

How the results depend on the processing

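Of 50 alternative values for 15 results, 11 moved out of the bounds used and 39 did not. The bounds were 1.5 times the value for a count and the 95% interval for a share or median. They do not take in the shares over all peaks. Beside those shares, control overlap went from 62.9% against 60.2% to 31.7% against 70.8% at a −log10 FDR of at least 5. PTC overlap went from 89.6% against 78.8% to 82.4% against 83%. GGACT in PTC went from 29.2% against 24.4% to 12.5% against 13% in the short window. A −log10 FDR of at least 5 left 3 Ighv genes in PTC alone and 12 in both, with 31.7% of control peaks overlapped where 70.8% of all control peaks were, and put the median score at 9.31 in PTC and 12.6 in control, which follows from leaving out the weaker peaks. At least 4-fold enrichment left 16 genes in both. Leaving out genes with a copy at 95% identity left 2 in PTC alone and 25 in both, since it takes away genes. The strongest peaks of shared genes had a median score of 8.21 in control. In a short window around the midpoint of each peak, GGACT was in 12.5% of PTC and 15.7% of control Ighv peaks, beside 13% and 11.3% of all PTC and all control peaks of the same widths, as these windows are shorter than most peaks. Genes in control alone ranged from 16 to 26 over the alternatives and outnumbered those in PTC alone in each. These bounds judged counts and not shares, while the listed Ighv genes fell from 67 to 41 at the score cut and 39 at the fold cut. Control alone did not move at a score of at least 5, but its share went from 35.8% to 63.4%. PTC alone did not move at 4-fold, but its share went from 7.46% to 17.9%, beside 8.24% and 16% of all genes. At a score of at least 5, the GGACT near the V exon end was covered in 37.5% of 8 PTC genes and 56.5% of 23 control genes, both inside the wide intervals given above. Grouping by gene identifier gave the same counts. No paired analysis was possible because the lists hold no values per sample and the groups share no sample numbers, and leaving out each replicate could not be run for the same reason. Depth is unknown, so a missing peak is not an absent mark.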

Other observations

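Several peaks in the heavy chain locus belong to genes that the lists leave unnamed, and they were not counted above. Named through their gene identifiers in GENCODE M21 after their values were seen, 2 of them are V pseudogenes, Ighv1-2 with a −log10 FDR of 2.38 and 5.23-fold and Ighv1-38 with 3.94 and 17.9-fold, both in the control list alone. The processed pseudogene Gm7019 had a peak with the same start and end in both lists, with 26.4 and 3.54-fold in PTC and 19.6 and 3.57-fold in control. Gm9517, another processed pseudogene, had 11.9 and 2.39-fold in PTC and 15.5 and 3.32-fold in control. Gm9256 was listed in PTC alone at 2.04, and Gm9260 in control alone at 5.04.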
